A study of Moesziomyces aphidis with 9 samples.

Results

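A set of 63 genes of the fungus Moesziomyces aphidis (formerly Pseudozyma aphidis), out of 6952 genes measured, had much lower transcript levels in cultures with soybean oil than in cultures with glucose alone, and kept most of their glucose level in glucose replicate 3, the glucose library least like the other 2. The members were chosen by the RPKM values (reads divided by gene length and by the library's total) of the 6 main libraries. A member had a mean of at least 10 RPKM over these libraries and a log2 ratio of oil to glucose of at most -2, a drop of about 4-fold, with 1 RPKM added to each mean. Its share was under 0.33, where the share is the part of the drop from the mean of glucose replicates 1 and 2 to the oil mean that glucose replicate 3 had already covered. A share of 0 places replicate 3 at the mean of the other 2 glucose replicates, a share of 1 places it at the oil mean, and a negative share places it above that mean. Of the 5621 genes that averaged 10 RPKM or more, 154 (2.74%) had the drop. Genes inside runs of 3 or more neighbouring lowered genes were left out, which removed 17 of the 154, 7 of them with a share under 0.33. The remaining 137 were the 63 members and 74 genes with a share of 0.33 or more.

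All libraries came from strain DSM70725, cultured for 114 h at 30 °C in a medium with yeast extract and 40 g/l glucose. The oil cultures held the same glucose and a further 70 g/l soybean oil. The glucose cultures are labelled not induced and grew as blastospores, and the oil cultures are labelled as induced by soybean oil and grew as filaments, so medium and cell form cannot be told apart. There were 3 libraries of 50 bp reads per medium, 1 stranded library per medium carrying the number of replicate 1, and 1 paired-end library of 95 bp reads from oil replicate 2. The sample titles number the replicates with br, commonly short for biological replicate, but no label says whether they were separate cultures, so the spread given here may be technical.

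M. aphidis is a basidiomycete of the smut fungi that grows as a yeast or as filaments and secretes mannosylerythritol lipids, glycolipid surfactants built from a sugar part and fatty acids. Plant oil is a usual feed for their production: lipases release its fatty acids, which the cell can burn by beta-oxidation or build into the glycolipids. In fungi, a change of carbon source typically changes the transcripts of sugar uptake, central metabolism and secreted enzymes. The files give numbered identifiers without gene names or products, so no role is given to any member. The member with the highest glucose mean and the member with the lowest log2 ratio are named by identifier, and the others by their rank in mean RPKM on glucose, from 1 to 63.

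The 6 main libraries held between 8108888 and 11100455 reads, and 97.2% to 98.1% of these lay in genes. The paired-end library held 31573726 reads. Replicate libraries correlated at r = 0.967 to 0.994 across 6486 genes, which are not independent replicates. The lowest of these values was between glucose replicates 1 and 3, while glucose replicates 1 and 2 correlated best. Every replicate pair differed by more than counting noise, with a chi-square per gene of 6.93 between glucose replicates 1 and 2 and 95.8 between 1 and 3, so no library was a copy of another.

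The members took a sizeable part of the glucose transcriptome. They held 5.33%, 5.60% and 6.13% of the reads in genes in glucose replicates 1, 2 and 3, against 0.781%, 0.697% and 0.812% in the oil replicates. Glucose replicate 3 had the largest portion of the 3. The 74 lowered genes outside the set went the other way, with 3.45% and 3.42% in glucose replicates 1 and 2 but 1.69% in replicate 3, and 0.140%, 0.167% and 0.140% in the oil replicates. This contrast follows from the rule. A lower value in bulk RNA does not distinguish less transcript per cell from fewer cells that carry it.

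Expression within the set was concentrated in a few genes. On glucose 7 members had a mean of at least 1000 RPKM, 22 lay between 100 and 1000, and 34 between 10 and 100. The median member had 90.4 RPKM on glucose and 14.3 with oil, and the median drop was 6.20-fold on the RPKM values themselves. The 4 members with the highest glucose means held 54.2% ± 1.32 (SD, n = 3) of the members' reads on glucose and 51.2% ± 2.79 with oil. With oil 24 members were under 10 RPKM, 33 lay between 10 and 100, 5 between 100 and 1000, and 1 was still above 1000. The drops varied in size: 31 members had a log2 ratio above -2.5, 23 had -3 or lower, 8 had -4 or lower and 4 had -5 or lower.

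**Figure D1:**
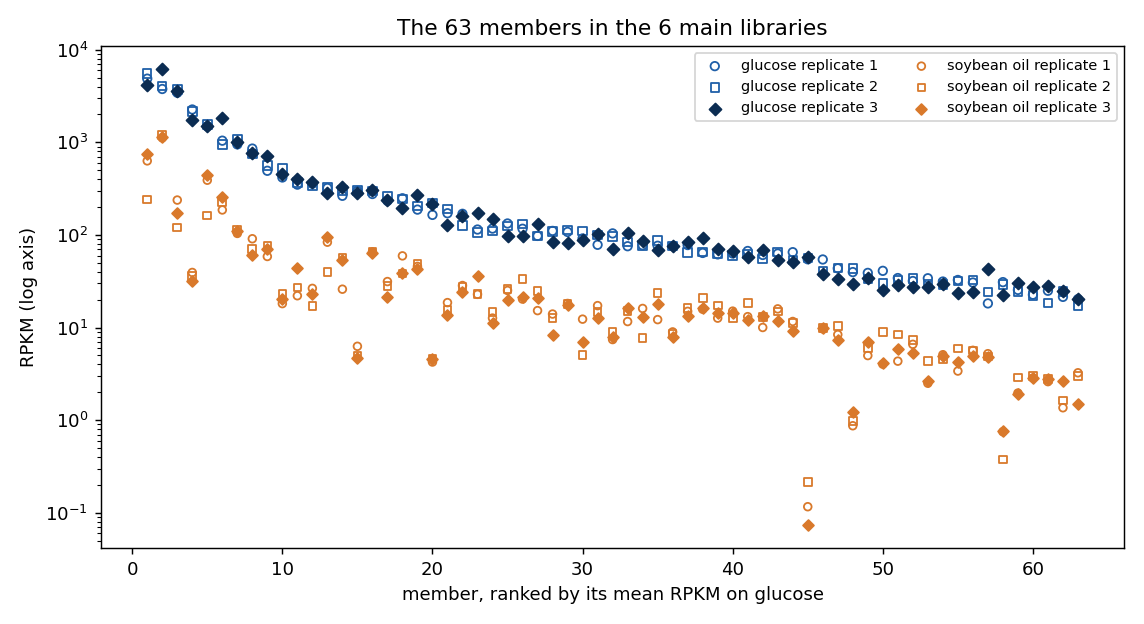
RPKM on a log axis of each of the 63 members in the 6 main libraries, against the member's rank in glucose mean. Blue symbols are glucose and orange symbols oil libraries. All 3 glucose values of each member lie above all 3 of its oil values, from 4868 RPKM on glucose at rank 1 to 19.3 at rank 63.

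PaG_06353 was the most abundant member on glucose. It had 4873, 5533 and 4198 RPKM in glucose replicates 1, 2 and 3, and 631, 241 and 750 in the oil replicates. The means were 4868 ± 667 and 541 ± 266 (SD, n = 3), a 9.003-fold drop. The coefficient of variation (SD over mean) was 13.7% on glucose, with replicate 3 the lowest. With oil it was 49.3%, with replicate 2 the lowest.

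The member ranked 2 stood out by its high level with oil. It had 3768, 4082 and 6230 RPKM in the glucose replicates and 1118, 1197 and 1131 in the oil replicates, where it was the 1 member still above 1000 RPKM. Its drop, 4.09-fold, was the smallest of all members on the RPKM values. Replicate 3 was the highest glucose library, so the mean of 4693 ± 1340.0 (SD, n = 3) rested in part on it, and the share was -0.83.

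The member ranked 3 combined high abundance with a steep drop. It had 3432, 3732 and 3593 RPKM on glucose and 238, 121 and 171 with oil, a 20.3-fold difference of the means. Replicate 3 lay between the other 2 glucose libraries, which gave a share of -0.0034.

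PaG_05462, ranked 4, had the lowest log2 ratio of the set with 1 RPKM added. On the RPKM values themselves the member ranked 45 dropped more, with a log2 ratio of -8.71 against -5.85. It had 2263, 2165 and 1765 RPKM in the glucose replicates and 39.4, 36.3 and 31.6 in the oil replicates. The log2 ratio was -5.81, and the means of 2064 ± 264 and 35.7 ± 3.92 RPKM (SD, n = 3) differed 57.8-fold. The spread in each medium was small beside the gap between the media, and its oil values rested on 369 to 580 reads.

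The other 3 members above 1000 RPKM on glucose had drops of 4.54-fold, 5.75-fold and 9.23-fold. The member ranked 5 had 1488, 1556 and 1486 RPKM on glucose and 390, 163 and 444 with oil. The member ranked 6 had 1043, 949 and 1831 on glucose and 186, 224 and 255 with oil, so that replicate 3 was well above the other glucose libraries. The member ranked 7 had 951, 1076 and 1006 on glucose and 104, 115 and 110 with oil, with little spread in either medium. None of the 7 overlapped between media, which held for all 63 members and all 74 other lowered genes. Of the 5621 genes, 30.3% had all oil values below all glucose values. The drop that the rule required largely fixes this, so nothing is read from it.

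Besides PaG_05462, 3 members had log2 ratios of -5 or lower, at lower abundance. The member ranked 15 had 299, 300.5 and 287 RPKM on glucose and 6.28, 4.995 and 4.70 with oil, a 55.4-fold drop of the means. The member ranked 20 had 165, 221 and 213 on glucose and 4.25, 4.64 and 4.58 with oil, a 44.5-fold drop. Their oil values came from 143 to 240 and from 72 to 100 reads, so both levels were low but well counted.

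The member ranked 45 came nearest to absence with oil. It had 54.6, 56.2 and 57.7 RPKM on glucose, from 917, 859 and 877 reads. In the oil replicates it had 2, 4 and 1 reads, or 0.116, 0.214 and 0.0731 RPKM. Over the pooled reads glucose exceeded oil 397-fold, with an exact 95% interval of 193 to 989 that covers counting error only. Its log2 ratio of -5.66 includes the added 1 RPKM and therefore understates the drop. The 3 glucose libraries agreed closely, with a coefficient of variation of 2.74%.

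Below 10 reads in at least 1 oil library were 3 members, and 44 had at least 100 reads in every oil library. The lowest read number of a member in a glucose library was 52. The members' values were thus well counted on glucose, and counting error was material with oil for a few of them.

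The position of glucose replicate 3 within the set was not uniform. It lay above both other glucose replicates in 25 members, between them in 11 and below both in 27. Among all 5621 genes of at least 10 RPKM it was above both in 30.7% and below both in 58.8%, shares from which nothing is read here because the rule used this library. The median share was 0.0232, with quartiles of -0.198 and 0.214, and 19 members had a share of at least 0.2. The limit on the share fixed these values in part, and they are given as a description. In the 74 lowered genes outside the set the median share was 0.485 and the highest 0.920.

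In 4 members replicate 3 was at least 1.5-fold above the mean of the other glucose replicates. These were ranked 2, 6, 23 and 57. The member ranked 57 had the lowest share, -1.32, with 18.2, 24.2 and 42.8 RPKM on glucose and 5.22, 4.86 and 4.76 with oil. The member ranked 23 had 114, 106 and 172 RPKM on glucose and 22.8, 23.2 and 36.4 with oil. Replicate 3 was thus the highest glucose library in all 4, and each had all glucose values above all oil values. The mean of glucose replicates 1 and 2 alone was 3925, 996, 110 and 21.2 RPKM, against oil means of 1149, 222, 27.5 and 4.95. With that mean in place of the glucose mean, those ranked 2, 23 and 57 would miss the log2 limit of -2. So would those ranked 38 and 39. All of these members met the limit only through replicate 3.

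The steadiest member on glucose was ranked 36, with 75.6, 76.1 and 75.9 RPKM, a coefficient of variation of 0.277%. It had 8.98, 8.47 and 7.83 RPKM with oil, a 9.004-fold drop. Over the set the coefficient of variation on glucose had a median of 12.7% and was under 20% in 55 of 63 members. With oil the median was 16.2%, and 37 members were under 20%. For all genes of at least 10 RPKM the medians were 12.7% on glucose and 10.9% with oil. The limit on the share bounds the members' spread on glucose in part, and the 74 other lowered genes had a median of 30.9% there. With oil the levels were unlike, with medians of 14.3 RPKM for the members and 38.0 for all these genes. The values are given as a description.

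Genes outside the set lay close to its limits. The 3 members just inside the limit on the share had 0.314, 0.317 and 0.326, and the 3 genes just outside had 0.338, 0.339 and 0.340. On the log2 ratio the nearest members had -2.02, -2.02 and -2.01 and the nearest genes outside -1.98, -1.98 and -1.97. On the mean the nearest genes outside had 7.36, 8.91 and 8.94 RPKM and the nearest members 10.9, 12.7 and 13.3.

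**Figure D2:**
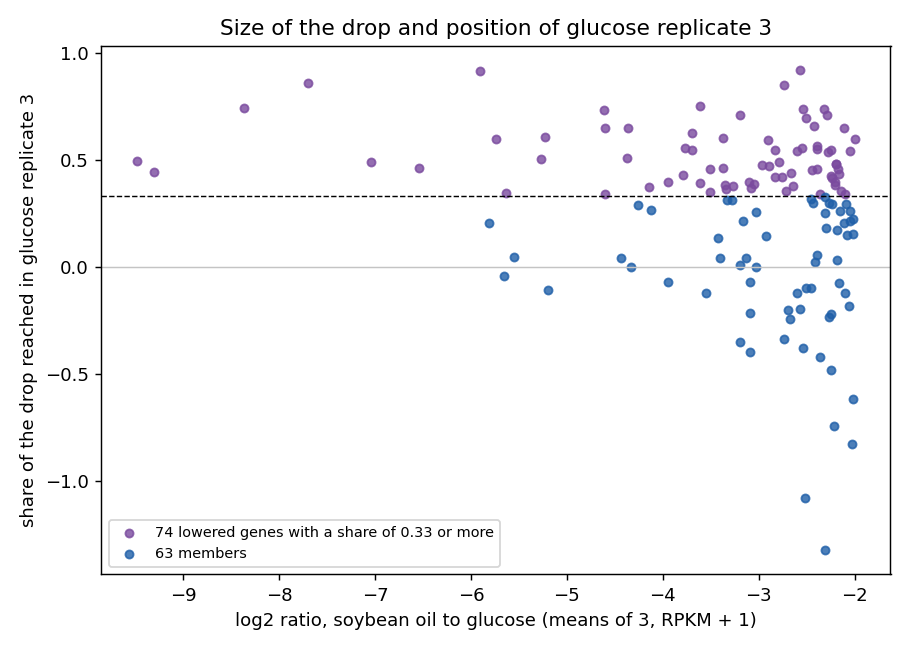
Share of the drop reached in glucose replicate 3 against the log2 ratio of oil to glucose, for the 63 members (blue) and the 74 other lowered genes (purple). The dashed line is the limit of 0.33, which points approach from both sides, and the lowest shares, down to -1.32, belong to members with log2 ratios from -2.52 to -2.03.

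Across all genes, limma (a linear model with variances moderated over genes) on log2(RPKM + 1) called 202 of 6486 tested genes (3.11%) lower with oil at a Benjamini-Hochberg adjusted p under 0.05 and a log2 fold change of at most -2. It called 62 of the 63 members by this criterion, all but the one ranked 2 with a log2 fold change of -1.99, and all 63 had an adjusted p under 0.05, the largest being 0.000907. With the paired-end library replacing the 50 bp library of oil replicate 2, it called 107 genes and 32 members, and 37 members had an adjusted p under 0.05. Since the rule used this contrast, these counts describe the set and support nothing about it. In each of the 63 members the highest oil library lay below the lowest glucose library, which held for 30.3% of the 5621 genes. This too follows largely from the rule.

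The stranded libraries had no part in the rule, but carry the number of replicate 1, whose 50 bp libraries did. In this pair all 63 members were lower with oil, 62 of them at least 2-fold and 54 (85.7%) at least 4-fold. Of all 5621 genes of at least 10 RPKM, 67.6% were lower, 17.9% at least 2-fold and 4.25% at least 4-fold. The median log2 ratio in the stranded pair was -2.75 for the members and -0.30 for the 5621 genes. Among the 74 lowered genes outside the set, 68 (91.9%) were at least 4-fold lower, with a median of -3.41. With 1 stranded library per medium these values have no replicate error and were not tested.

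PaG_05462 stood at 804 RPKM in the stranded glucose library and 14.4 in the stranded oil library, a log2 ratio of -5.71. PaG_06353 stood at 4426 and 650 RPKM, a log2 ratio of -2.77. The member ranked 15 stood at 655 and 6.85 RPKM, the lowest log2 ratio of all members at -6.38 with 1 RPKM added. The member ranked 45 stood at 69.3 and 0.11 RPKM, so that it was again nearly absent with oil.

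The exception was the member ranked 2, at 693 RPKM in the stranded glucose library and 481 in the stranded oil library. Its log2 ratio was -0.53 in the stranded pair and -1.75 in the 50 bp pair of replicate 1. Both stranded values were far below its 50 bp values of 3768 and 1118 RPKM in the same replicate. The other 8 members that missed 4-fold had log2 ratios of -1.98 to -1.55.

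Levels in the stranded glucose library were within 2-fold of the 50 bp library of glucose replicate 1 in 47 members. They were at least 2-fold lower in 15 members (23.8%) and higher in 1, against 19.7% and 1.49% of the 5621 genes. In the stranded oil library 16 members (25.4%) were at least 2-fold lower than in the 50 bp library, against 23.5% of all genes, and 0 were higher, against 0.925%. The members' difference between library kinds was thus near that of genes in general.

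**Figure D3:**
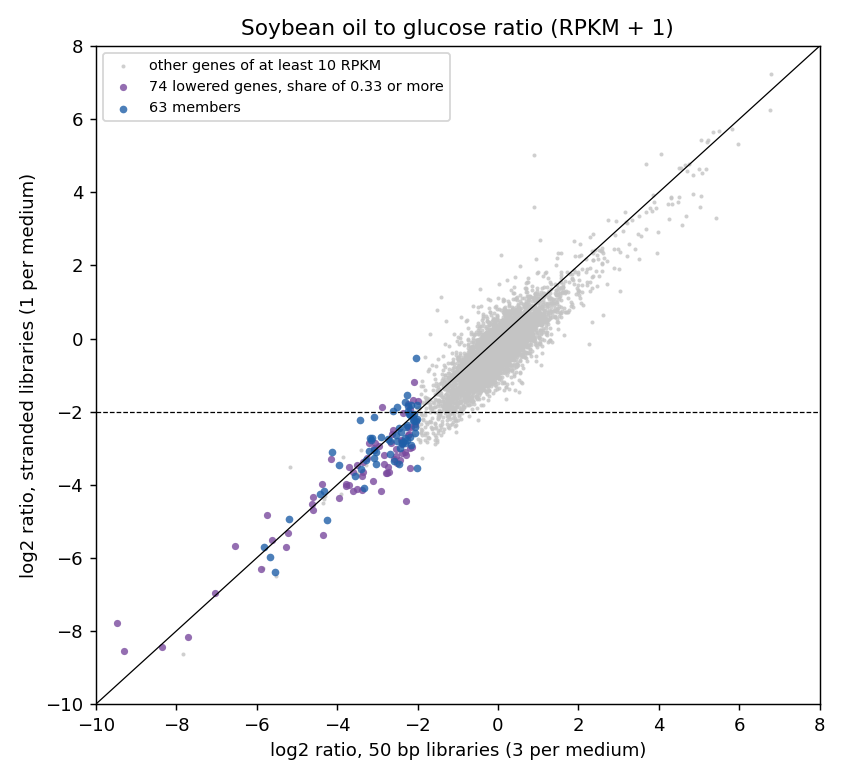
Log2 ratio of oil to glucose in the stranded libraries (1 per medium) against that in the 50 bp libraries (3 per medium), each with 1 RPKM added. The solid line marks equal ratios and the dashed line a 4-fold drop. Of the 63 members (blue) 54 lie at or below the dashed line, and the member at -0.53 lies farthest above it.

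The paired-end library, labelled as oil replicate 2 like 1 of the 50 bp libraries, gave the members other levels. It was at least 2-fold above the 50 bp library in 38 of 63 members (60.3%) and at least 2-fold below it in 5 (7.94%), and 20 were within 2-fold. Of all 5621 genes 12.7% were at least 2-fold above and 4.15% below. The median log2 ratio of paired-end to 50 bp library was 1.38 for the members, 1.91 for the 74 other lowered genes and 0.25 for the 5621 genes. The rule used the 50 bp library and not the paired-end library, and the part of this in the difference was not tested. Within the 50 bp oil libraries, replicate 2 was the highest in 27 members and the lowest in 11. Its median log2 ratio to the mean of the other 50 bp oil libraries was 0.086 for members and 0.067 for the 5621 genes. For the 74 other lowered genes this median was 0.211. The counts of highest and lowest were not made for the 5621 genes, so nothing is read from them.

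The difference was large in both directions. At least 4-fold higher in the paired-end library were 19 members (30.2%), against 2.22% of all genes. At least 4-fold lower were 3 members (4.76%), against 1.25%, and these were ranked 1, 5 and 6. PaG_06353 had 241 RPKM in the 50 bp library of oil replicate 2 and 10.03 in the paired-end library. The member ranked 5 had 163 and 13.9, and the member ranked 6 had 224 and 7.99. For these 3 the paired-end library showed a deeper drop from glucose than any 50 bp oil library.

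At the other end, the member ranked 22 had 169, 126 and 160 RPKM on glucose and 28.5, 27.6 and 24.2 in the 50 bp oil libraries, but 897 in the paired-end library. The member ranked 49 had 38.9, 33.6 and 34.7 on glucose, 4.99, 6.02 and 6.95 in the 50 bp oil libraries and 153 in the paired-end library. The paired-end value of both was higher than any of their glucose values. The paired-end library was above the highest of the 6 main libraries in 11 members (17.5%), against 43.2% of all genes. It was above the glucose mean in 12 members (19.0%; 66.6% of all genes) and at least 4-fold below it in 22 (34.9%; 1.96% of all genes). The glucose side of these comparisons is the 50 bp libraries in which the rule required the members to be high. The shares therefore follow in part from the rule and are given as a description.

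The paired-end excess was also listed by the position of glucose replicate 3, a library that the rule used. It reached 2-fold in 10 of the 25 members with glucose replicate 3 above both others, in 9 of the 11 with replicate 3 between and in 19 of the 27 with replicate 3 below. The median log2 ratios of paired-end to 50 bp library were 0.42, 1.65 and 1.41. These counts are a description of 1 library and were not tested. Of the 5621 genes 12.7% reached 2-fold, whatever the position of replicate 3. They were not split by that position, so nothing is read from the differences between the positions.

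**Figure D4:**
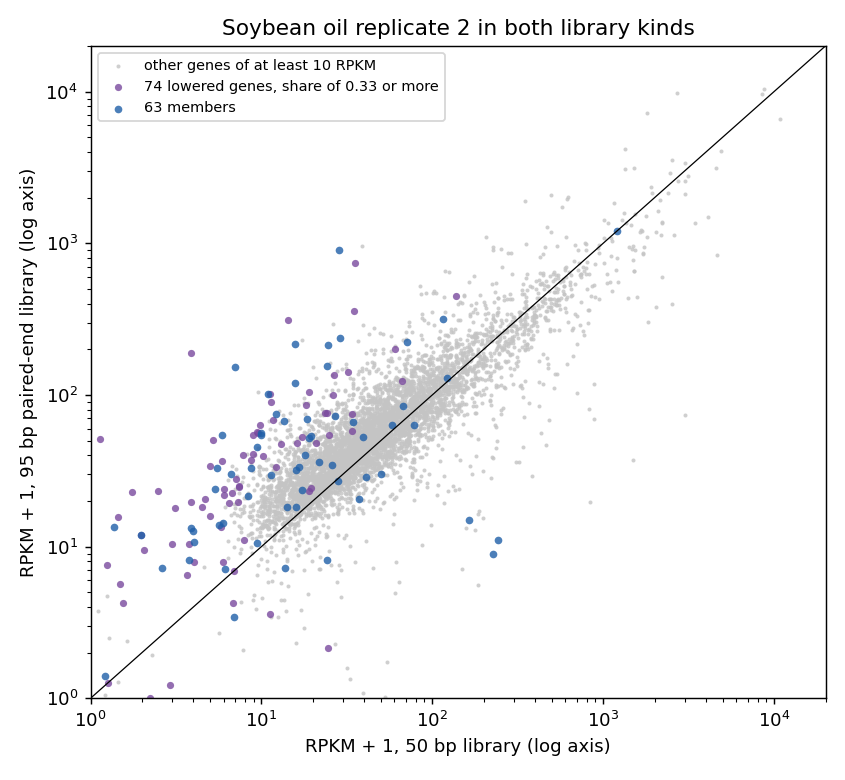
RPKM + 1 in the 95 bp paired-end library against the 50 bp library of oil replicate 2, on log axes, for genes of at least 10 RPKM. The line marks equal values. Most members (blue) lie above the line, the highest at 897 RPKM against 27.6, and 3 lie far below it.

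The 50 bp oil libraries also differed among themselves for some members. Oil replicate 2 was at least 1.5-fold below the mean of oil replicates 1 and 3 in 6 members (9.52%), against 1.30% of the 5621 genes and 1 of the 74 other lowered genes (1.35%). It was at least 1.5-fold above that mean in 4 members (6.35%), ranked 26, 35, 50 and 51, against 3.82% of the 5621 genes and 12 of the 74 (16.2%). The rule used these oil libraries, and the median oil level was 14.3 RPKM in the members against 38.0 in the 5621 genes. Nothing is therefore read from these shares. The 6 members with a low replicate 2 were ranked 1, 3, 5, 13, 30 and 34, so 3 of the 5 most abundant members were among them. The member ranked 13 had 321, 325 and 286 RPKM on glucose and 83.6, 40.1 and 94.1 with oil. Of the 6, the paired-end library of the same replicate was lower still for those ranked 1, 5 and 13, with 27.7 RPKM for the last, and higher for the other 3.

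Members were spread over gene lengths and over the numbering. Their lengths ran from 289 to 5018 bp with a median of 1810 bp, against 1723 bp for the 5621 genes and 1601 bp for the other lowered genes. Identifiers above 10000, a separate number series, were carried by 9 members (14.3%), against 14.2% of the 5621 genes. Only 1 pair of members had consecutive identifiers. Its genes, ranked 7 and 62, differed greatly in level: the second had 21.5, 24.6 and 24.5 RPKM on glucose and 1.36, 1.64 and 2.64 with oil. Their log2 ratios were -3.19 and -3.09. In all, 15 members (23.8%) had a direct neighbour that was lowered at least 2-fold without overlap, against 18.5% of the 5621 genes. Among the 74 other lowered genes there were 28 (37.8%). The members and these 74 exclude genes in longer runs and the 5621 genes do not. The shares of the members and of the 5621 genes are therefore not directly comparable.

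The 5 genes outside the set whose log2(RPKM + 1) followed the members' mean most closely over the 6 libraries had Pearson's r of 0.9987 to 0.9996. These values describe 6 libraries in 2 groups and carry no test. Their shares ran from -0.041 to 0.082, and their log2 ratios of -1.96 to -0.72 missed the limit of -2. The members' mean log2(RPKM + 1) was flat over the glucose replicates, at 6.93, 6.94 and 6.94, though many single members were not. The limit on the share bounds how far replicate 3 can fall in a member, so this flatness follows in part from the rule. The 5 genes were picked for following the members' mean, so their own flat glucose profile follows from the choice.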

How the data were processed

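The deposited gene files of the 9 libraries hold RPKM values made by the authors, aligned with TopHat 1.4.1 per the submitters' processing notes. The counting tool, annotation and build were not given in the sources used here. RPKM of the 7 unstranded libraries are ratios of whole numbers, so library totals, reads and gene lengths were worked out for 6952 of 6952 genes within a relative tolerance of 1e-06. Each length is the smallest that makes a gene's reads whole in all 7. It can therefore be a divisor of the length the authors divided by, with the reads smaller by the same factor. This is likeliest in genes with few reads, and the shortest length among the 5621 genes was 24 bp. The deposited stranded RPKM values have a lowest value of 1. Values under 8 RPKM were compared with whole reads at the best-fitting library total, within 0.006 RPKM and where this is under 0.1 read. After subtracting 1, 99.3% of 145 such values (glucose) and 100% of 193 (oil) were whole, against 27.7% of 101 and 24.6% of 122 without, so 1 was subtracted. RPKM do not allow for shifts in RNA composition. The 11 junction lists do not link to gene identifiers and were not used.

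Members and lists were chosen with earlier results of these data known. Genes were named by a written rule: the member with the highest glucose mean and that with the lowest log2 ratio, the others by rank. Other members were singled out after their values were seen. The whole-table fit used limma 3.58.1 in R 4.3.3 with an intensity trend, on log2(RPKM + 1) of genes that averaged 1 RPKM or more in the 6 main libraries, with Benjamini-Hochberg adjustment. Tested on data drawn for this comparison with 6483 genes, it called 100 of 100 genes lowered 8-fold and 0 unchanged genes. Of 100 genes lowered 2-fold it called 0 at the limit of -2, and 94 had a limma adjusted p under 0.05. The drawn data gave every library the same spread. They therefore do not show how the fit behaves with a library as unlike the others as glucose replicate 3. Group shares and medians over genes describe the sets and have no test, since genes are not replicates. Intervals cover counting error only, and a count of 0 allows up to 3 reads.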

Additional observations from a re-analysis of the deposited data

Results flagged for a closer look

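The paired-end library of oil replicate 2 lies outside the main comparison. In 11 members (17.5%, against 43.2% of the 5621 genes of at least 10 RPKM) it was above the highest of the 6 main libraries, glucose included. The members ranked 22, 24, 31 and 35 on glucose had 897, 217, 118 and 214 RPKM there. The members ranked 44, 46 and 49 had 73.5, 99.96 and 153 RPKM. The members ranked 50, 51, 54 and 57 had 55.0, 44.3, 31.8 and 53.8 RPKM. The excess over the highest main library ran from 1.01-fold at rank 54 to 5.30-fold at rank 22. There was 1 paired-end library, so these values have no replicate check. The rule used the 6 main libraries, so the share of members above them follows in part from it.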

How the results depend on the processing

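The set was rebuilt under 17 alternatives. Without 1 library at a time it held 60 to 67 genes, with 52 to 56 at least 4-fold lower in the stranded pair and a median share of -0.053 to 0.0370. Glucose replicate 3 defines the share and could not be left out of it. A share limit of 0.5 gave 103 members, 90 of them 4-fold lower in the stranded pair, with a median share of 0.259. A limit of 0.2 gave a median share of -0.105. A log2 limit of -1.5 gave 114 members and a median share of -0.061, and a limit of -3 gave 23 members, all 23 of them 4-fold lower in the stranded pair. A pseudocount of 5 RPKM, added to the stranded values too, gave 44 members. Of these, 32 were 4-fold lower in the stranded pair, the median share was -0.022, and limma called 110 genes. With the paired-end library replacing the 50 bp one of oil replicate 2 the set had 45 genes, 36 of them shared with the 63, a median share of -0.111, and limma called 107 genes, 32 of the 63 members among them. The cause was not tested. With 1 not subtracted from the stranded values, an alternative chosen after seeing the data, 51 of the 63 were 4-fold lower in that pair. Median-ratio scaling kept 57 and quantile normalization 52 of the 63. In the other alternatives counts stayed within 1.5 times, and the log2 ratios of both named genes stayed negative in every alternative run on them. Leaving out 1 library gave 190 to 240 limma calls.

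The replicate block left 202 genes called, as without it. Same-numbered libraries deviated from their group means with r of -0.187, 0.234 and 0.0457, so the numbers were not taken to pair the samples. Without the filter on low values limma called 201 genes. Depth limits mainly the weakest oil values, such as the 1 to 4 reads of the member ranked 45.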
